A study of Mus musculus with 14 samples.

Results

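This report describes 29 probe sets of an Affymetrix expression array that were brighter in Dnmt1 knockout than in control blood progenitors and that the array's annotation does not tie to a single gene. A probe set is a group of short probes whose signals are combined into 1 intensity. The 29 were taken from 22626 probe sets that are not array controls. In the annotation table used here, 1555 of these carry no gene symbol, 691 carry several and 20380 carry 1. Members were selected on the deposited intensities. A probe set was taken if it carried no symbol or several and if, in each of 3 sorted cell populations, its lowest knockout intensity exceeded its highest control intensity. Its mean over the 7 knockout arrays also had to reach 32 units and 1.5 times its mean over the 7 control arrays. Of the 29, 19 carry no symbol and 10 carry several. Because the difference between genotypes chose the members, that difference is described here and not tested.

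The study asked how loss of Dnmt1 changes RNA levels in hematopoietic stem and progenitor cells of mice aged 8 to 12 weeks on a C57BL/6 background. All animals carried loxP-flanked Dnmt1 alleles (Dnmt1fl/fl). Knockout animals (Cre+) also carried the Mx-Cre transgene, whose promoter answers to interferon in many cell types, and control littermates (Cre-) did not. The controls were given the same course of poly(I)poly(C), a synthetic double-stranded RNA, as the knockout animals: 7 doses of 25 ug/kg, 1 every other day. Marrow was collected 4 days after the course ended and pooled from 4 to 6 mice of 1 genotype per sample. Cells with mature lineage markers were depleted before sorting. Long-term hematopoietic stem cells (LT-HSC, Lineage- c-Kit+ Sca-1+ CD34-) and multipotent progenitors (MPP, which are CD34+) were each measured on 2 arrays per genotype. Myeloid progenitors (c-Kit+ Sca-1-) were measured on 3 per genotype. Replicates are pools of different mice, so errors and p-values describe the spread between pools. The deposited values are linear intensities in arbitrary units, and their background correction, summarisation and scaling are not given in the sources used here.

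DNA methyltransferase 1 copies methyl groups onto the new strand of CG sites after DNA replication. Methylation maintained in this way is known to keep germline genes, some X-linked multicopy genes and endogenous retroviral elements silent in somatic cells. On arrays of this family, an identifier ending in _x_at marks a probe set with probes that also match other sequences, _s_at marks probes shared by several transcripts of different genes, and _a_at marks probes shared by alternative transcripts of 1 gene. Repeated sequences and recent gene duplicates are therefore read largely by such probe sets.

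The selected class was small, but a larger share of it met the numerical rule than of the rest of the array. Among probe sets with no or several symbols, 29 of 2246 met the rule, which is 1.29%, against 0.318% of all 22626. Separately, the rule was met by 19 of 1555 with no symbol (1.22%), by 10 of 691 with several (1.45%) and by 43 of 20380 with 1 symbol (0.211%). The mirrored rule, with knockout below control in all 3 populations, was met by 0 of 2246 probe sets with no or several symbols and by 10 of 20380 with 1 symbol, which is 0.0491%, and by 0.0442% of all. These shares are counts under a rule and not a test.

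The share depended on the kind of probe set. Among identifiers ending in _x_at, 11 of 230 with no or several symbols met the rule (4.78%), against 4 of 1282 with 1 symbol (0.312%). For the 111 _x_at probe sets with no symbol the share was 8.11%, or 9 probe sets. Among _s_at identifiers it was 5 of 196 (2.55%) against 2 of 1273 (0.157%), and among _a_at identifiers 4 of 313 (1.28%) against 7 of 3727 (0.188%). Plain _at identifiers, whose probes were designed to be unique to 1 transcript, gave 9 of 1507 (0.597%) against 30 of 14098 (0.213%). With no symbol at all, the shares were 1.69% of _a_at and 0.501% of plain _at probe sets.

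**Figure D1:**
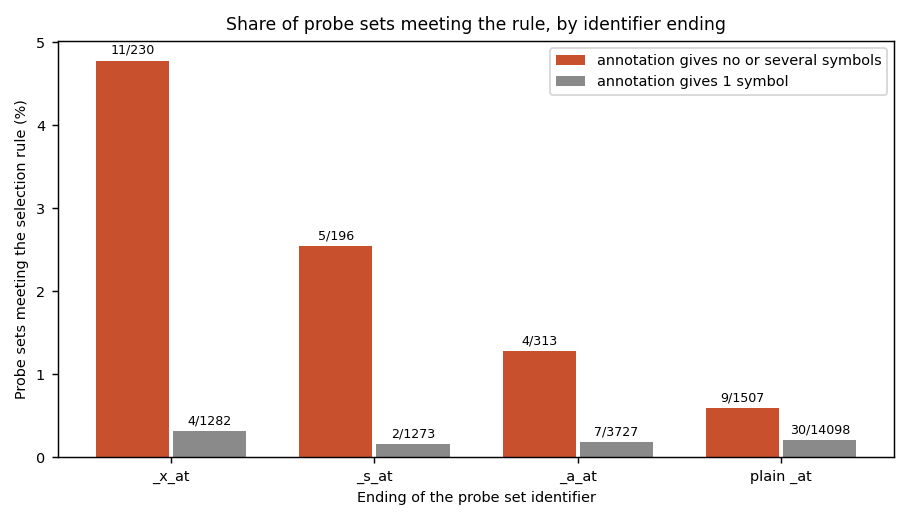
The bars give the percent of probe sets that met the selection rule, for each ending of the identifier, with probe sets of no or several symbols in orange and those of 1 symbol in grey, and the counts above them. The highest bar is that of _x_at probe sets with no or several symbols, at 4.78%.

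The arrays of a group correlated with r from 0.904 to 0.982 and had median intensities between 41.1 and 49.1 units. Dnmt1 itself, read by 1422946_a_at, read 1328 to 2219 units in controls and 745 to 1305 in the knockout. Its signal was thus lower but not absent, and whether these probes lie in the deleted stretch is not stated by the labels. Some sorting markers followed the labels. Mpo, a granule enzyme of myeloid progenitors, was at 170 to 758 units in LT-HSC, 3952 to 5854 in MPP and 5359 to 6755 in myeloid progenitors. Cd34 was at 7.55 to 96.8 in LT-HSC and 310.2 to 1021 in MPP. The stem cell markers Procr and Meis1 were not higher in LT-HSC than in MPP controls, at 59.3 to 232 against 251 to 749 units for Procr and 21.3 to 62.7 against 40.7 to 71.3 for Meis1. In such bulk samples, fewer cells of a type and less RNA per cell cannot be told apart.

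A subset of the annotated members belongs to 3 families of duplicated genes, and sequences upstream of a pair of genes of each are shown because they illustrate how far such copies are alike and how many CG sites, the substrate of Dnmt1, they hold. All are the 250 bases before the annotated start, 5′ to 3′ on the gene's strand, from RefSeq (GRCm38.p6), with each CG in capitals. Pira1 lies at chr7:3739918-3740167 on the minus strand and Pirb at chr7:3720383-3720632 on the minus strand. Tuba3a lies at chr6:125286082-125286331 on the minus strand and Tuba3b at chr6:145615713-145615962 on the plus strand. Xlr4a lies at chrX:73082508-73082757 on the minus strand and Xlr4b at chrX:73214083-73214332 on the plus strand.
Pira1: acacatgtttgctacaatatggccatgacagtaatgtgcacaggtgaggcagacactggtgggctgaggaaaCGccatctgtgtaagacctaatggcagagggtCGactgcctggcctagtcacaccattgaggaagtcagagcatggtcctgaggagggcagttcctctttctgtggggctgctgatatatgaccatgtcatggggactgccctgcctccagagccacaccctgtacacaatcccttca
Pirb: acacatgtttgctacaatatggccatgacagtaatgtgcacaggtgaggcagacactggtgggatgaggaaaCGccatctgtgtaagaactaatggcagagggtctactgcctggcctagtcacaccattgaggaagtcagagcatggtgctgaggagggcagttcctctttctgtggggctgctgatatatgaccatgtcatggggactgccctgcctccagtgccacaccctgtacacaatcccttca
Tuba3a: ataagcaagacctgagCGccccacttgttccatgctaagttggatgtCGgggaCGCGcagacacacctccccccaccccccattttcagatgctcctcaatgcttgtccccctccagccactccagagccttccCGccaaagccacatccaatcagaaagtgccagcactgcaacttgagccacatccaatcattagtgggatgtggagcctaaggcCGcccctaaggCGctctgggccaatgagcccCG
Tuba3b: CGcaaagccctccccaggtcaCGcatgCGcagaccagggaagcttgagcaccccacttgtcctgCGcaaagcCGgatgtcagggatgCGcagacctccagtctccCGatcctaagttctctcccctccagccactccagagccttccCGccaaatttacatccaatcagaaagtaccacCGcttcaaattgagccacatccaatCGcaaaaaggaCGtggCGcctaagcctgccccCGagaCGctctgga
Xlr4a: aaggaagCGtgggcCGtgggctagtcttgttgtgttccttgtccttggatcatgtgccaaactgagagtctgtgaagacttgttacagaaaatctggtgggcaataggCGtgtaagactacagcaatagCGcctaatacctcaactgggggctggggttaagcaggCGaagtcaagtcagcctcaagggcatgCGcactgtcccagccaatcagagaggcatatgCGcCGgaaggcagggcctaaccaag
Xlr4b: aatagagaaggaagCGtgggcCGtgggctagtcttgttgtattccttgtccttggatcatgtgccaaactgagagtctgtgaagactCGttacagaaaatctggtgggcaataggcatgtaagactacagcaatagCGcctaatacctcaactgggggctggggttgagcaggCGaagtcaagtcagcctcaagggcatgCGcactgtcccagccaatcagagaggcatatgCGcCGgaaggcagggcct

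The 10 members with several symbols list 23 genes, and 22 of these had a promoter in the RefSeq table of 300-base windows, which reach 50 bases past the start. Over the whole window Pirb and Pira1 were 97.3% identical and Xlr4a and Xlr4b 93.3%, whereas Tuba3a and Tuba3b were 60.3% identical. Other pairs of the same families were less alike, at 78.7% for Pirb and Pira2, 78.3% for Xlr4a and Xlr4c and 46.3% for Xlr3a and Xlr3c. Unrelated pairs scored 39.7% (Noct and Sgip1) to 46.0% (Sgip1 and Cog6) by the same edit-distance measure. The windows held 1 to 46 CG sites with a median of 7, which was also the median of all 32851 promoters of the table. The Pir windows were poor in CG, with 1 in Pirb and 2 in Pira1, and those of Tuba3a and Tuba3b held 12 and 16. The 6-base motif GCGGGA or its reverse complement TCCCGC, the core of E2F-type sites, occurred in 4 of the 23 windows (Tuba3a, Tuba3b, Sgip1 and Xlr), against 20% of all promoters. A match describes the letters only. The arrays measured no methylation.

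The 3 members with the largest ratio of means carry no symbol and are unnamed here. All are _x_at probe sets. On control arrays 1433438_x_at read 6.77 and 2.64 units in LT-HSC, 6.84 and 2.81 in MPP, and 6.71, 4.56 and 2.12 in myeloid progenitors. The knockout arrays read 702 and 372 in LT-HSC, 424 and 975 in MPP, and 375, 1093 and 831 in myeloid progenitors. Every knockout array was therefore far above every control array, and the ratio of means was 147. For 1456182_x_at the control arrays read 7.57 and 7.20 in LT-HSC, 10.1 and 6.47 in MPP, and 11.6, 7.76 and 6.14 in myeloid progenitors. Knockout intensities were 917 and 560 in LT-HSC, 479 and 1356 in MPP, and 536, 1543 and 1172 in myeloid progenitors, a ratio of 116. This probe set had the largest average difference over the 3 populations on the log2(intensity + 16) scale, 5.16 ± 0.74 (SD over 7 littermate pairs, as for all such differences of members).

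The control values of 1456456_x_at were 9.69 and 10.2 in LT-HSC, 9.73 and 3.75 in MPP, and 11.4, 9.43 and 6.72 in myeloid progenitors. In the knockout it read 710 and 397, 332 and 935, and 347, 1070 and 870 in the same order of populations, a ratio of 76.5. All control values of these 3 probe sets lay below the 40th percentile of their arrays, which was 19.9 to 26.9 units, so their ratios rest on values whose size depends on a background correction that is not known here. Over the 7 knockout arrays the 3 followed each other closely, with r of 0.996 between 1456182_x_at and 1456456_x_at and of 0.983 and 0.980 for 1433438_x_at with each. Whether their probes overlap was not tested, since the files used here hold no probe sequences. Of the 43 single-symbol probe sets under the same rule, the one nearest to 1433438_x_at was Mnd1, a meiotic recombination gene (r = 0.966 over 7 knockout arrays). The nearest to 1456182_x_at and 1456456_x_at was Noct, with r of 0.978 and 0.988.

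**Figure D2:**
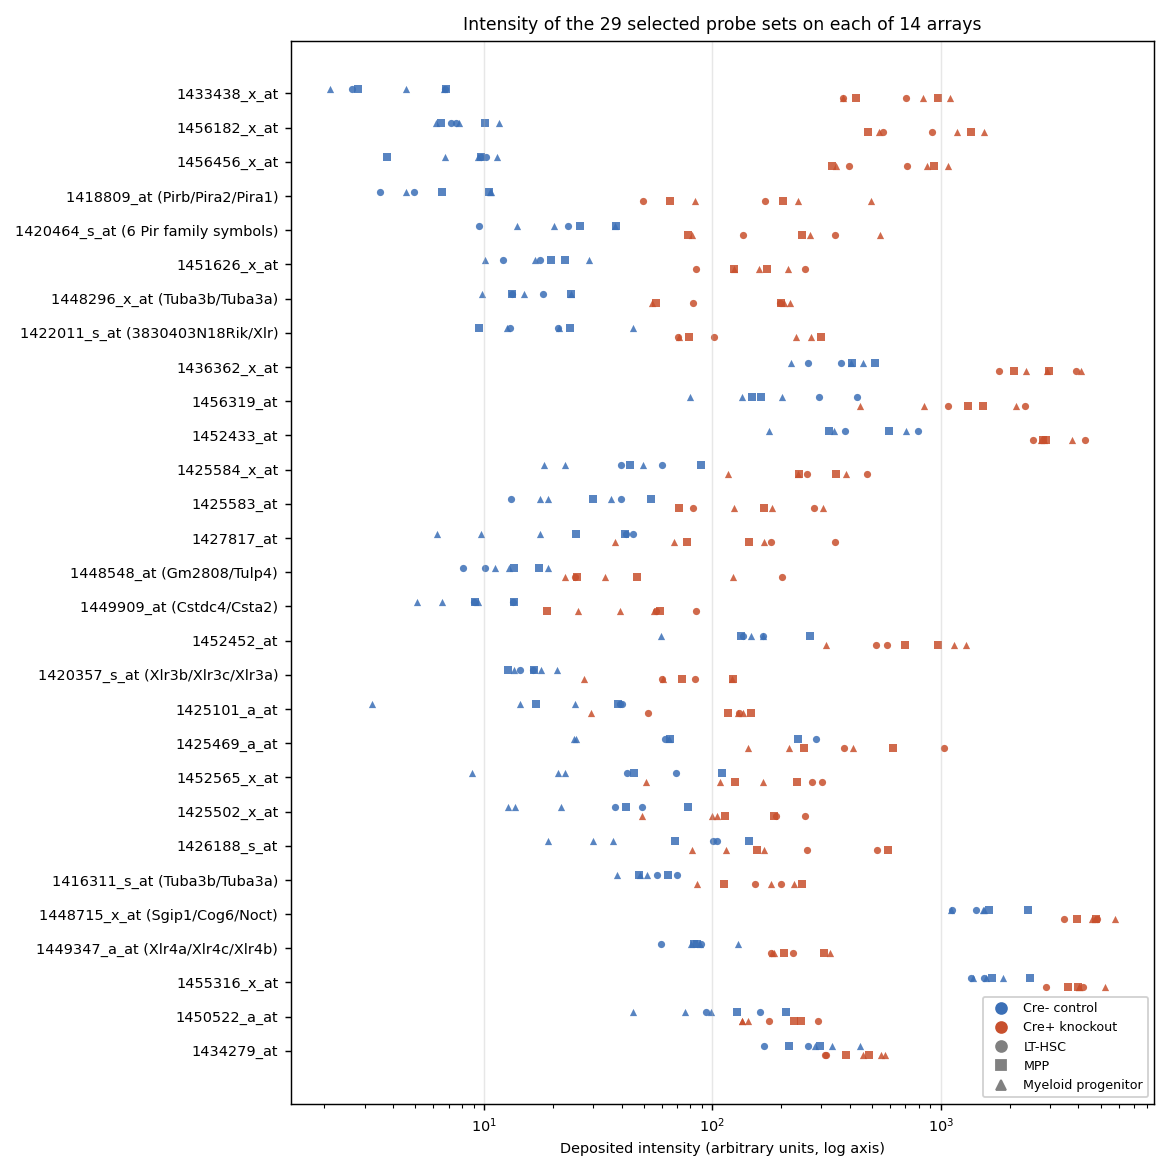
Each row is 1 of the 29 probe sets, ordered by the ratio of means, and each point is the deposited intensity on 1 array on a log axis, in blue for control and orange for knockout, with a marker shape for each population. The 2 clouds lie farthest apart in the top 3 rows, where control arrays read 2.12 to 11.6 units and knockout arrays 332 to 1543, and closest in the bottom row.

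Of the 5 members with the highest knockout means, 3 had a ratio of means over 5, and these carry no symbol. For 1436362_x_at the control arrays read 262 and 367 in LT-HSC, 515 and 407 in MPP, and 220.1, 454 and 404 in myeloid progenitors. The knockout arrays read 3885 and 1802 in LT-HSC, 2090 and 2965 in MPP, and 2360 and 4125 and 2926 in myeloid progenitors. The ratio of means was 7.67, and the average difference over populations was 2.88 ± 0.65. The probe set 1452433_at read 794 and 380.0 in LT-HSC controls, 591 and 324 in MPP controls, and 177, 703 and 342 in myeloid controls. In the knockout it read 4272 and 2521, 2807 and 2891, and 2740 and 3751 and 2833, a ratio of 6.59. Its lowest knockout array was more than 3 times its highest control array, although its controls spread widely.

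Control intensities of 1456319_at were 292 and 429 in LT-HSC, 149 and 163 in MPP, and 79.5, 135 and 202 in myeloid progenitors. In the knockout it read 2342 and 1071, 1320 and 1527, and 444, 2133 and 844, a ratio of 6.68. Here the lowest knockout value, in myeloid progenitors, was just above the highest control value, in LT-HSC, and the 3 myeloid knockout pools spanned most of the range of all 7. The last of the 10 largest ratios with no symbol belonged to 1451626_x_at. It read 12.2 and 17.6 in LT-HSC controls, 22.6 and 19.6 in MPP controls and 28.9, 10.1 and 16.7 in myeloid controls. In the knockout it read 254 and 84.97, 174 and 124, and 161, 215 and 125, a ratio of 8.91. No array of one genotype reached the range of the other.

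A pair of members had the highest knockout means of all 29 and the strongest control signal. The probe set 1448715_x_at is annotated to Sgip1, a regulator of endocytosis, Cog6, a subunit of a Golgi tethering complex, and Noct, a circadian-regulated phosphatase. These genes are not related, and the probe set cannot tell them apart. Its control values were 1117 and 1427 in LT-HSC, 2408 and 1621 in MPP, and 1538, 1113 and 1534 in myeloid progenitors. The knockout values were 4804 and 3445, 3949 and 4754, and 4574, 5793 and 4727, a ratio of 2.98 and an average difference of 1.57 ± 0.52. The groups did not overlap. The unnamed 1455316_x_at read 1351 and 1540 in LT-HSC controls, 2467 and 1670 in MPP controls, and 1862, 1389 and 1569 in myeloid controls. Its knockout values were 4190 and 2894, 3612 and 3970, and 4021, 5237 and 4024, a ratio of 2.36. Both members had their highest control value on the same MPP array, and they followed each other with r of 0.985 over the knockout arrays and 0.908 over the control arrays.

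Other probe sets of the same candidate genes gave different pictures. The probe set 1425837_a_at, annotated to Noct alone, met the numerical rule, with 68.5 to 179.8 units on control arrays and 347 to 1122 on knockout arrays, a ratio of 5.40. The probe set of Cog6 alone, 1426216_at, had means of 262 in controls and 240.1 in the knockout and was separated in 0 of 3 populations. Sgip1 was read by 1425180_at, which was separated in myeloid progenitors alone, at 43.8, 43.2 and 50.5 units in controls against 72.0, 252 and 200.9 in the knockout. In LT-HSC that probe set read 1.77 and 3.12 in the knockout. Of 8 further probe sets annotated to any candidate gene, the one of Noct was the only one to meet the rule.

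**Figure D3:**
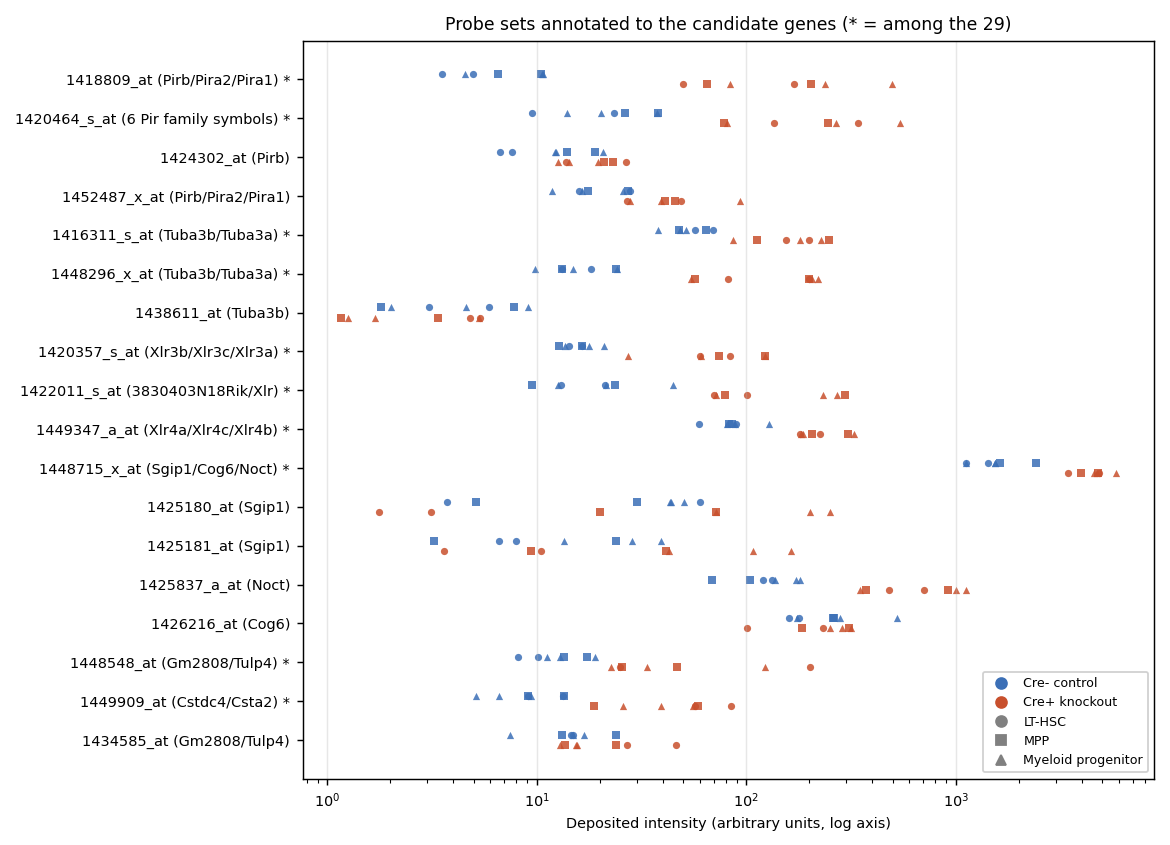
Rows are the probe sets annotated to the candidate genes, with a star on the 10 that are members and none on the other 8, and points are deposited intensities per array on a log axis, coloured by genotype. Noct (1425837_a_at) is the only unstarred row with blue and orange points apart in all populations, while Cog6 (1426216_at) shows them mixed.

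The paired immunoglobulin-like receptors form a cluster on chromosome 7. Pirb is an inhibitory receptor of B cells and myeloid cells that binds MHC class I, and the Pira receptors are its activating counterparts. The probe set 1418809_at, annotated to Pirb, Pira2 and Pira1, read 3.52 and 4.94 units in LT-HSC controls, 6.54 and 10.5 in MPP controls, and 10.6, 10.8 and 4.55 in myeloid controls. Its knockout values were 170 and 49.8, 65.0 and 203, and 84.0, 494 and 237, a ratio of 25.3 and an average difference of 2.74 ± 1.04. The control range lay wholly below the knockout range. The probe set 1420464_s_at, annotated to those 3 and to Lilra6, Gm14548 and the transcribed pseudogene Gm10693, read 9.5 and 23.3 in LT-HSC controls, 38.02 and 26.3 in MPP controls, and 20.3, 37.6 and 14 in myeloid controls. On knockout arrays it read 343 and 136, 78.3 and 246, and 81.3, 543 and 268, a ratio of 10.03. Within each population the same knockout pool was the brightest for both probe sets. The spread between the myeloid pools exceeded the differences between population means, which average over pools.

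The signal was not shared by all Pir probe sets. The probe set 1424302_at, annotated to Pirb alone, read 6.66 to 20.7 units in controls and 12.7 to 26.7 in the knockout, a ratio of 1.41, and was separated in 2 of 3 populations. Another several-symbol probe set, 1452487_x_at, annotated to Pirb, Pira2 and Pira1, had a ratio of 2.26 and failed the rule in LT-HSC, where a knockout array at 26.9 lay below a control array at 28.0. Markers of mature myeloid cells, which carry these receptors and which lineage depletion removes, passed in no case in limma's average contrast. Of the granulocyte markers, 5 of 6 were tested and 0 passed at an adjusted p of 0.05, with 0 at an unadjusted p of 0.05. Their summed intensity was 517 to 1788 in LT-HSC controls against 154 to 6944 in the knockout, and 3452 to 11458 against 954 to 11956 in myeloid progenitors. The monocyte list had 0 calls, with a summed intensity of 4016 to 5176 in myeloid controls and 4088 to 4398 in the knockout. The part of these cells in the Pir signal was not tested.

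The nearest single-symbol probe sets were Pnpt1, a mitochondrial RNA exonuclease, for 1418809_at (r = 0.95) and Mnd1 for 1420464_s_at (r = 0.976), each over 7 knockout arrays. These correlations share the same pools and arrays and are given as a description.

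Tuba3a and Tuba3b encode an alpha-tubulin best known from testis. Both lie on chromosome 6, and 2 members are annotated to the pair. The _x_at probe set 1448296_x_at read 18.1 and 13.3 units in LT-HSC controls, 24.0 and 13.3 in MPP controls, and 24.1, 9.85 and 14.97 in myeloid controls. Knockout arrays gave 198 and 82.2, 56.8 and 199.6, and 54.2, 219.7 and 205, a ratio of 8.64. No overlap was seen between genotypes. The member 1416311_s_at read 38.1 to 69.8 units in controls and 86.0 to 248 in the knockout, a ratio of 3.21, and followed the former with r of 0.911 over knockout arrays. A plain probe set annotated to Tuba3b alone, 1438611_at, stayed at or under 9.09 units on all 14 arrays and had a ratio of 0.670.

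The Xlr genes are X-linked multicopy genes whose proteins are related to the synaptonemal complex protein Sycp3. They account for 3 members and 8 candidate genes, all on chromosome X. The probe set 1422011_s_at, annotated to Xlr and 3830403N18Rik, read 13.01 and 21.1 units in LT-HSC controls, 9.48 and 23.7 in MPP controls, and 44.7, 12.6 and 21.3 in myeloid controls. Its knockout values were 70.4 and 101.2, 79.1 and 298, and 71.4, 271 and 231, a ratio of 7.68. MPP replicate 2 and myeloid replicates 2 and 3 were the highest, and all knockout arrays exceeded every control. The Xlr3 probe set 1420357_s_at (Xlr3a, Xlr3b, Xlr3c) read 12.8 to 20.9 units in controls and 27.3 to 123 in the knockout, a ratio of 4.91. The Xlr4 probe set 1449347_a_at (Xlr4a, Xlr4b, Xlr4c) read 59.4 to 129 and 181 to 327, a ratio of 2.62. Across the knockout arrays these 3 tracked each other less closely than the Tuba3 pair, with r of 0.606 to 0.694. All 3 had 14 arrays without overlap between genotypes.

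The remaining several-symbol members were dim. The probe set 1449909_at, annotated to Csta2 and Cstdc4, which encode stefin-type inhibitors of cysteine proteases, read 5.11 to 13.5 units in controls and 18.8 to 84.7 in the knockout, a ratio of 5.13. The probe set 1448548_at, annotated to Tulp4, a tubby-like protein, and the predicted gene Gm2808, read 8.12 to 19.0 and 22.7 to 202, a ratio of 5.19. Its high mean came from 2 arrays, LT-HSC replicate 1 and myeloid replicate 2, and its average difference was 1.24 ± 1.08. A second probe set of the same gene pair, 1434585_at, had a ratio of 1.46 and was separated in 1 population.

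A further group with no symbol had its highest knockout mean in LT-HSC and its lowest mean in myeloid progenitors in both genotypes. The probe set 1425502_x_at read 37.3 and 49.3 units in LT-HSC controls, 77.8 and 42.0 in MPP controls, and 21.6, 13.6 and 12.7 in myeloid controls. Knockout arrays gave 255 and 189, 185 and 113, and 49.3, 105.1 and 99.7. The genotypes separated within each population but overlapped between populations. The rule did not compare knockout populations with each other, but it asked each of them to exceed its controls. The limma test over 15549 probe sets is thus not free of the selection. In it, LT-HSC exceeded myeloid progenitors by 1.29 ± 0.34 (SE) on the log2 scale. The F test over the 3 populations gave an adjusted p of 0.161. That was the lowest adjusted p of the 29. For 1427817_at the same difference was 1.51 ± 0.46 (adjusted p = 0.253), and for 1452565_x_at 1.41 ± 0.43 (adjusted p = 0.260). The largest, 1.57 ± 0.49, was that of 1426188_s_at, with an adjusted p of 0.210. Without MPP knockout replicate 2 its difference was also 1.57. The controls differed in the same direction. There, LT-HSC exceeded myeloid progenitors by 0.84 for 1425502_x_at, 1.10 for 1427817_at, 1.07 for 1452565_x_at and 1.38 for 1426188_s_at. In controls 1425502_x_at, 1452565_x_at and 1426188_s_at had their highest mean intensity in MPP, and 1427817_at had it in LT-HSC.

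Between knockout populations, 0 of 29 members passed an adjusted p of 0.05 in limma's F test, against 1.80% of the 15549 probe sets tested, and 4 passed an unadjusted p of 0.05, against 12.5%. Between control populations 0 of 29 passed, against 4.28%, and 4 did so unadjusted, against 17.1%. Nothing is read from these counts in either genotype. The rule asked for a knockout signal above control in every population. Also, 9 members entered the fit only through knockout arrays and reached at most 28.9 units in controls. With 2 pools per group the median SE of the difference between LT-HSC and MPP knockouts was 0.51 over the members, so a difference of that size was not detectable. The highest population mean in the knockout was found in LT-HSC for 11 members, in MPP for 5 and in myeloid progenitors for 13. In controls MPP was the highest for 16.

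The 4 LT-HSC-bright members named above and 1425469_a_at followed each other over the knockout arrays with r of 0.832 to 0.967, and over control arrays with r of 0.710 to 0.969. Among these, 1452565_x_at and 1425502_x_at were the closest pair, at 0.967. The members 1456319_at and 1425584_x_at had the same order of population means in the knockout but did not follow as closely throughout. In controls 1456319_at was highest in LT-HSC and 1425584_x_at in MPP. For 1456319_at, r was 0.657 with 1426188_s_at over knockout arrays and -0.019 with 1425584_x_at over control arrays. Members grouped by a shared order of populations tend to correlate across populations, so these r are partly built in. In both genotypes the sum of T and NK cell markers was highest in LT-HSC and lowest in myeloid progenitors. That of B cell markers was highest in LT-HSC in both. Summed T and NK cell markers read 268 to 305 units in LT-HSC controls and 652 to 809 in the LT-HSC knockout, 149 to 200.5 in MPP and 40.8 to 71.8 in myeloid progenitors. Summed B cell markers read 6129 to 13082 in LT-HSC, 139.5 to 2483 in MPP and 405 to 1072 in myeloid progenitors. Of 5 T and NK markers tested, 0 passed for the average difference between genotypes in limma. At an unadjusted p of 0.05, 2 were higher (Thy1 and Il2rb), against 3.13% of all probe sets. These 2 reached up to 427 and 240 units. Cd3e, Cd3g and Klrd1 reached at most 64.5, 55.1 and 94.6, so the sum need not describe each gene. The part of such cells in these members was not tested.

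The other members with no symbol spanned a wide range of levels. The probe sets 1425584_x_at and 1425583_at had ratios of 6.38 and 5.80, with 18.2 to 89.0 and 13.1 to 53.7 units in controls. In the knockout they read 117 to 475 and 71.6 to 306. The probe set 1452452_at stood out for its level in myeloid progenitors, where knockout replicates 2 and 3 read 1283 and 1143, replicate 1 read 314 and controls read 59.6 to 167, and its overall ratio was 5.12. For 1425469_a_at the ratio was 4.00 and for 1425101_a_at 4.19, both with overlap between populations. The smallest ratios were those of 1450522_a_at, with 44.8 to 210.1 units in controls and 135 to 291 in the knockout, and 1434279_at, with 167 to 442 and 311 to 569.

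In all, 21 of 29 members had all 7 knockout arrays above all 7 control arrays, and the other 8 separated within populations only. These were 1427817_at, 1425101_a_at, 1425469_a_at, 1452565_x_at, 1425502_x_at, 1426188_s_at, 1450522_a_at and 1434279_at. The ratio of means was at least 5 in 17 members, at least 10 in 5 and under 2 in 2. The median ratio was 5.19 for the members, 3.72 for the 43 single-symbol probe sets under the same rule and 0.965 for all probe sets. All 29 were above the 40th percentile on at least 2 arrays and entered the fit, but 9 did so only through knockout arrays.

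Near the thresholds, the ratio of 1.5 was met most narrowly by 1434279_at (437 over 285 units, 1.53), 1450522_a_at (1.66) and 1455316_x_at (2.36). The only separated probe set below it was 1448450_at, with no symbol, at 2307 over 1993 units and a ratio of 1.16. The level of 32 units was met most narrowly by 1449909_at at 48.5, 1448548_at at 68.3 and 1420357_s_at at 78.7. Just below it lay 1449962_at at 26.5 units with a ratio of 8.81, 1426074_at at 21.2 and 1425500_x_at at 19.16, the last pair with no symbol. The first of these is annotated to Pramel3, a member of the Prame-like family of germline genes, and to Gm15023, Gm7903, AV320801 and Gm5128.

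The size of the difference varied between littermate pairs as well as between populations. Each population value averages its own pairs, so the spreads are not compared. The median member difference on the log2(intensity + 16) scale was 2.14 in LT-HSC, 1.80 in MPP and 2.19 in myeloid progenitors, against -0.01 for all tested probe sets in the average of populations. Between the 3 myeloid pairs alone it ranged from 1.09 to 2.93, and the LT-HSC pairs gave 2.50 and 1.56. The member levels moved together by pool. Myeloid knockout replicate 2 exceeded replicate 1 in 29 of 29 members, against 59.3% of all tested probe sets, and replicate 3 in 27, against 47.2%. LT-HSC knockout replicate 1 exceeded replicate 2 in 25 of 29, against 40.4%, and MPP replicate 2 exceeded replicate 1 in 21, against 53.1%. This order was not particular to the members. The 43 single-symbol probe sets under the same rule had median differences of 0.85, 2.05 and 1.07 in the 3 myeloid pairs. Their medians were 1.76 and 1.15 in the LT-HSC pairs and 1.19 and 1.65 in the MPP pairs.

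Array measures moved in part with this order. The ratio of the 3′ to the 5′ Gapdh control probe sets, a sign of RNA quality and amplification, was 5.15 and 2.46 in LT-HSC knockout replicates 1 and 2 and 2.33, 4.35 and 2.36 in the myeloid ones. The brighter pool thus had the higher ratio in both populations. In MPP the ratios were 2.66 and 2.53, lower in replicate 2, which was the brighter for 21 members. The 3′ to 5′ ratio of Actb ran the other way in LT-HSC, at 0.754 and 1.09 in replicates 1 and 2. It was also lowest in the brightest myeloid pool, at 1.13, 1.02 and 1.04 in replicates 1, 2 and 3. In MPP it was 0.833 and 1.08, higher in the brighter replicate 2. Control arrays with Gapdh ratios of 5.44, 5.27 and 4.30 differed from their control mean by -0.05, 0.23 and -0.11 in the median member. Each of these arrays is itself part of that mean. On the 7 knockout arrays the difference was 1.34 to 2.75. The rule placed the knockout arrays above the controls, so the control and knockout values are not compared. The residual Dnmt1 signal of 1422946_a_at was 1170 and 1305 in LT-HSC, 1141 and 745 in MPP, and 1055, 1084 and 1193 in myeloid progenitors, so the dimmer Dnmt1 array had the larger member difference in LT-HSC and MPP but not in myeloid progenitors. The part of these measures in the order of pools was not tested.

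**Figure D4:**
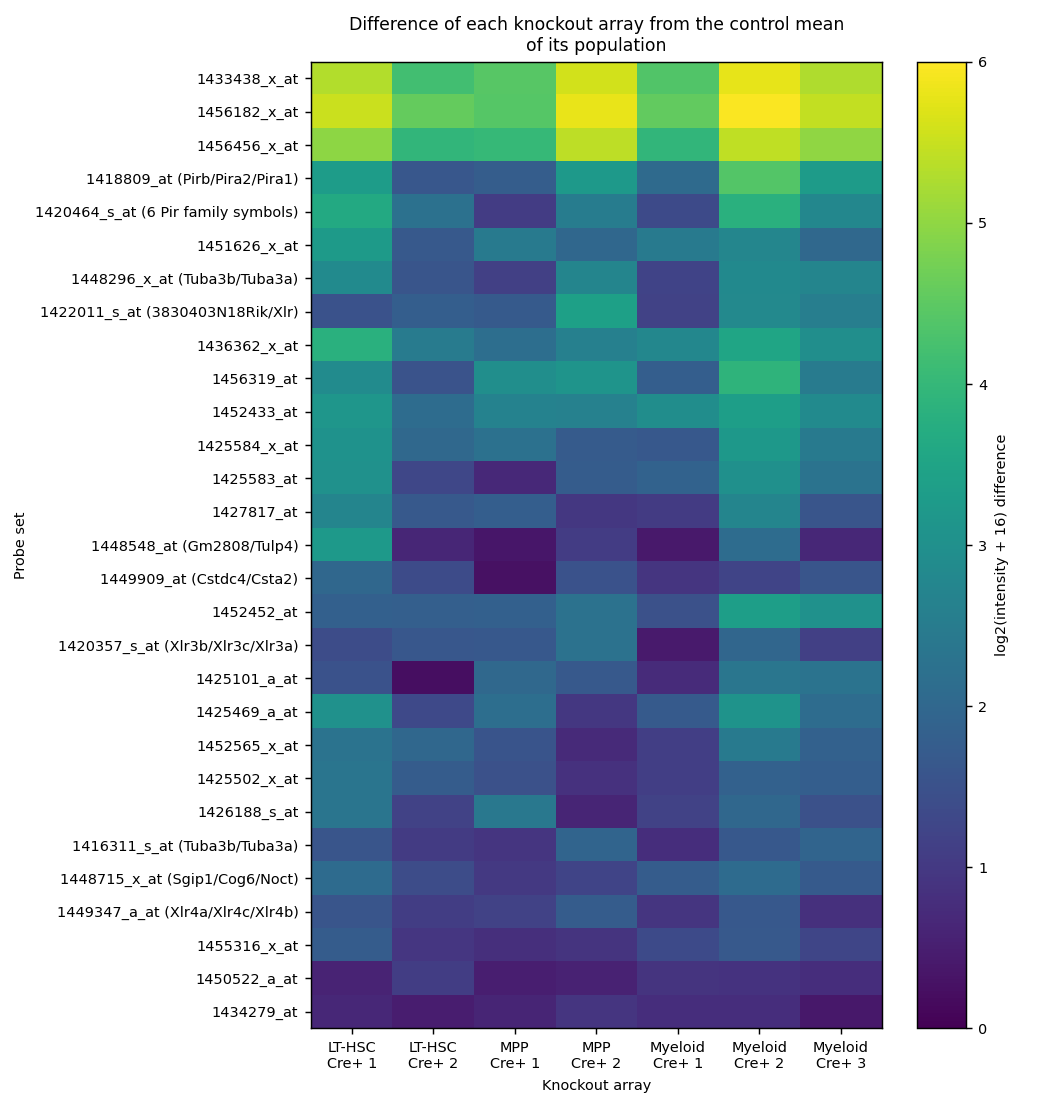
The colour gives the difference of 1 knockout array from the control mean of its population in log2(intensity + 16), for the 29 members in rows and the 7 knockout arrays in columns. All differences are above 0, and columns LT-HSC 1 and myeloid 2 are the brightest, with median differences of 2.72 and 2.75.

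Over the 7 knockout arrays the 406 pairs of members had a median r of 0.47, with 13 pairs at 0.95 or higher and 64 below 0. Over the 7 control arrays the median was 0.13. The lowest r was -0.84, so the members did not move as 1 block. Close pairs included the 3 probe sets with the largest ratios, the pair 1448715_x_at and 1455316_x_at, and the pair 1452565_x_at and 1425502_x_at. The pair 1436362_x_at and 1425583_at reached 0.966. All correlations are across 7 arrays of 3 populations, and they share the same pools and arrays.

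**Figure D5:**
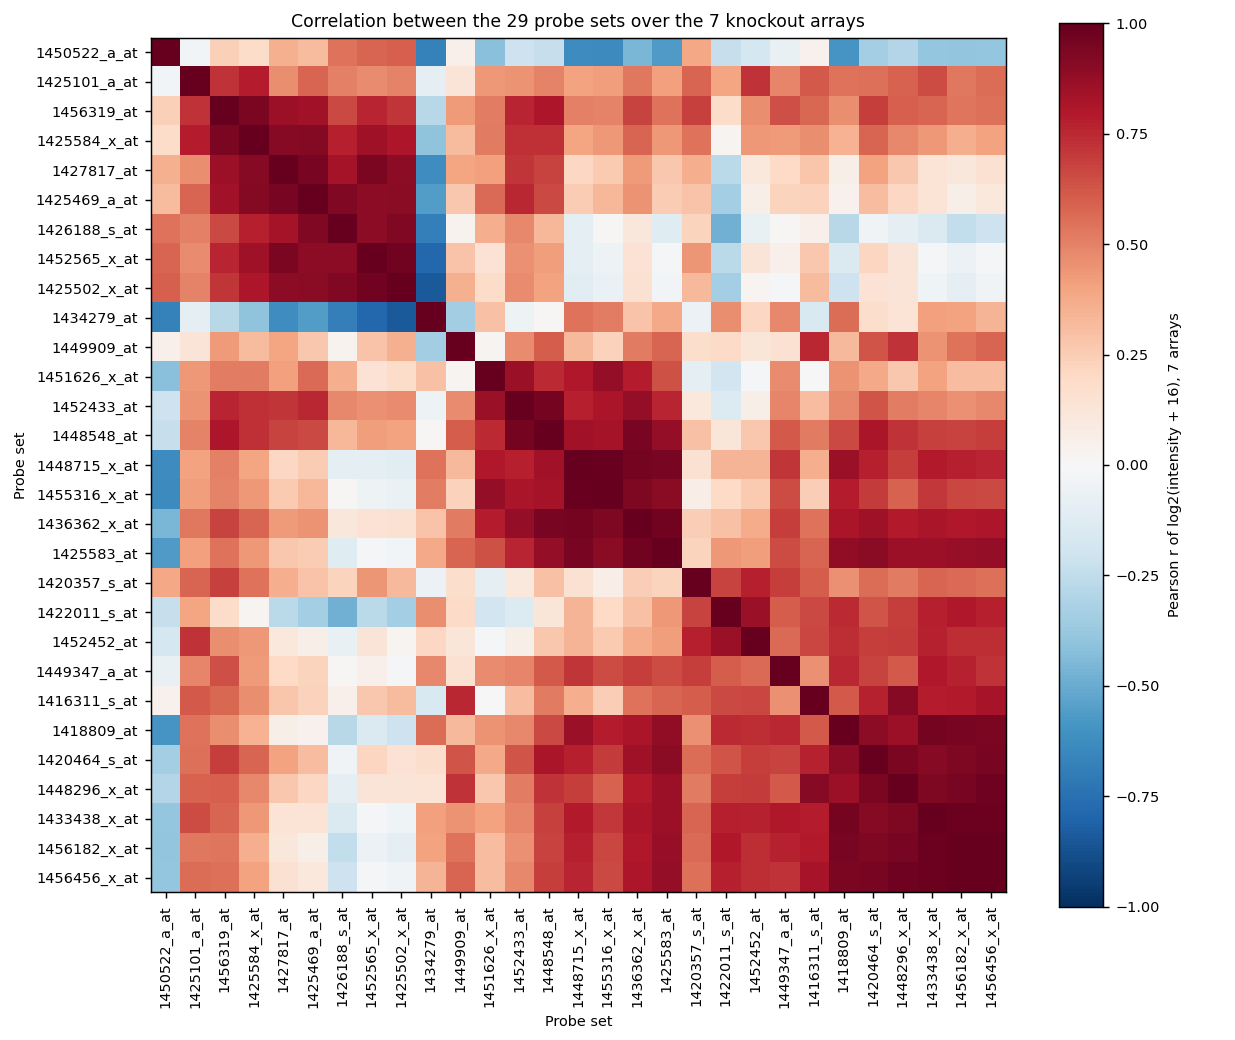
The colour gives Pearson's r of log2(intensity + 16) over the 7 knockout arrays for each pair of the 29 members, ordered by similarity. Red blocks of high r, such as that of 1433438_x_at, 1456182_x_at and 1456456_x_at at 0.980 to 0.996, stand beside blue pairs with r as low as -0.84.

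Genes known to be silenced by DNA methylation in somatic cells were read from a list of germline genes with 1 symbol. Of 35 listed genes 26 had a probe set with that symbol alone and 17 were bright enough to be tested. In limma's average over populations 8 of the 17 rose and 0 fell at an adjusted p of 0.05, against 0.341% higher and 0.00643% lower (0.347% in either direction) among the 15549 probe sets. The list was drawn up with earlier results of these data known, and all 8 genes also meet the numerical rule used for the members. Neither the count nor the p-values of these genes are therefore independent evidence, and both are given as a description. Tex19.1, a germ cell gene that restrains retroelements, rose by 5.03 ± 0.33 (SE, as for all listed genes) with an adjusted p of 2.38e-06. It read 3.08 to 8.04 units in controls and 193 to 1023 in the knockout. The X-linked Trap1a rose by 4.42 ± 0.41 (adjusted p = 7.74e-05), Tex19.2 by 4.06 and Rhox5, a homeobox gene of the X chromosome, by 3.54, the last pair both with an adjusted p of 2.13e-05. The ribosomal protein paralog Rpl39l rose by 3.43 ± 0.53, the germ cell RNA-binding gene Dazl by 2.80, Mnd1 by 2.59 and the testis dipeptidase Dpep3 by 2.12. A filter that asks for signal on 2 arrays admits silent genes only if they are raised, so the count of 8 is read against the 26 with such a probe set. Tex19.1, Tex19.2, Rhox5, Trap1a, Rpl39l and Dazl read at most 9.56 units in controls. That is below the 40th percentile of every array, so they entered through knockout arrays only.

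In the fit without blocks, no gene of the machinery that silences retroelements passed the test. Of 32 listed, 23 were tested, and 0 passed in limma's average contrast, while 1 was higher at an unadjusted p of 0.05, a level at which 3.13% of all probe sets were higher and 2.77% lower. That gene was Suv39h2, a histone H3 lysine methyltransferase, at 0.99 ± 0.22 (SE) with an adjusted p of 0.129. Its adjusted p was 0.0334 with littermate pairs as blocks, so it passed there. Without LT-HSC knockout replicate 2 its difference was 1.16. Suv39h2 also meets the numerical rule used for the members, with a ratio of means of 2.09. The median difference of the list was 0.05. Among marker lists of other cells, 0 genes passed in any. The erythroid list came nearest, with 4 of 5 tested genes higher at an unadjusted p of 0.05, against 3.13% of all, and a median difference of 0.88. Its summed intensity in MPP was 276 to 364 in controls and 1030 to 1258 in the knockout, while it was 1069 to 3525 and 1960 to 2946 in LT-HSC. Its part in the members' signal was not tested.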

How the data were processed

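The deposited table holds a linear intensity for each probe set on each of 14 arrays, as the values themselves show. Amplification used the WT-Ovation Pico RNA kit and labelling used biotin, per the labels' protocols. Background correction, summarisation, scaling and any aligner or build are not given in the sources used here. Symbols came from the platform annotation table, in which the 19 members with no symbol are not listed. The members were selected on the deposited intensities. Members and gene lists were chosen with earlier results of these data known. For fits, log2(intensity + 16) was quantile normalized, because array medians differed by 0.19 and interquartile ranges by 0.33 on that scale. Probe sets above the 40th percentile on at least 2 arrays were tested with limma 3.58.1 in R 4.3.3 (6 group means, intensity trend, 8 residual degrees of freedom, two-sided, Benjamini-Hochberg over 15549 probe sets). The script was tested on simulated data. Figures used Python 3.11.15 and matplotlib 3.10.9. Littermate pairs share replicate numbers within a population, per the labels. Deviations from group means correlated within pairs at r of 0.44 in LT-HSC, 0.57 in MPP and 0.21, 0.54 and 0.59 in myeloid progenitors, so Cre+ was also set against Cre- with the 7 pairs as blocks (4 residual degrees of freedom). Comparisons between populations had the replicate number as the block (6), although same numbers did not deviate together across populations. Members named with all 14 values are the 10 with the largest ratio and the 5 with the highest knockout mean, and the rest are given by range. Other genes named are all candidate symbols, the nearest single-symbol probe set of the 5 largest ratios, the threshold neighbours and listed genes past the threshold. Genes that failed it and the 14 values of 1425502_x_at were added after their values were seen. Alternatives were other pseudocounts, thresholds and filters, the values as deposited, the replicate block and leaving out each replicate. For arrays, their number limits the precision.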

Additional observations from a re-analysis of the deposited data

How the results depend on the processing

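The number of probe sets meeting the rule was 29. It was 27 at a ratio of 2, 33 at a level of 16 units, 28 at a level of 64, 31 after quantile normalization with all 29 among them, and 28 to 35 when 1 replicate was left out. The median member difference of 1.92 was 2.29 with a pseudocount of 1, 1.28 with 64, 1.88 on the values as deposited and 1.65 to 2.09 with 1 replicate left out. The count of members differing between knockout populations in limma's F test was 0 in every full fit, including the replicate block (the replicate number), where 5 passed an unadjusted p of 0.05, and 0 to 1 with 1 replicate left out. The 1 was 1426188_s_at without MPP knockout replicate 2, whose adjusted p otherwise reached 0.617. Between control populations it was 0 with the replicate block. The germline count was 8, and 7 with a pseudocount of 64, where Rpl39l had an adjusted p of 0.0603. The retroelement silencing count was 0, 1 with the pairs as replicate block (Suv39h2) and 0 to 1 with 1 replicate left out. Over all probe sets the block of littermate pairs raised the count of higher calls from 53 to 116, and the count differing between knockout populations, 280, was 74 to 566 with 1 replicate left out. The cause of these changes was not tested. No detection calls were used, so ratios against control values near background carry no bound.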
